A study of Mus musculus with 6 samples.

Results

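The genes described here are 10 components and targets of the NF-κB pathway. They are the subunit genes Nfkb1, Nfkb2, Rela and Relb, the inhibitor genes Nfkbia and Nfkbie, and the related gene Nfkbiz. The feedback and target genes Tnfaip3, Birc3 and Icam1 complete the set. The genes were found by symbol, and all 10 were present among the 35027 genes of the expression table. RNA had been sequenced from sorted Kate-positive tumor cells of mice of 2 genotypes. They are compared here to describe what mutant Braf adds to thyroid tumors driven by nuclear YAP. The study itself compared YAP tumors with wild-type thyroid cells, and tumors carrying both alleles with Braf tumors. In YAP mice, thyroid follicular cells carried a doxycycline (dox)-dependent activator together with the red fluorescent protein Kate, and dox induced YAPS127A, a form of the coactivator YAP that stays in the nucleus. BrafYAP mice carried the same alleles and also BrafV600E, expressed from the endogenous gene. By the labels, both groups received dox chow from 4 weeks of age and about 20000 sorted cells were collected per library, whereas in the study's results text dox began at a later age. There were 3 libraries per genotype (YAP replicates 1, 2 and 3, and BrafYAP replicates 1, 2 and 6). In the labels each YAP library pooled 3 tumors and each BrafYAP library was 1 tumor, so that pooling and genotype cannot be told apart. The study's methods text describes a single tumor per mouse for a replicate and no pooling, which would change what the spread among YAP libraries stands for, and the labels were followed. Neither group lacked the YAP transgene, so the comparison is of Braf on top of YAP.

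NF-κB transcription factors are dimers that are held in the cytoplasm by inhibitors of the IκB family. In the canonical route, receptors for cytokines and microbial products activate a kinase complex that marks the inhibitors for destruction, and dimers containing RelA enter the nucleus. In the noncanonical route, the NF-κB-inducing kinase drives processing of the Nfkb2 precursor, which releases dimers containing RelB. Several inhibitors and ubiquitin-editing enzymes are themselves NF-κB targets, so that the pathway limits its own activity. RNA levels, which were measured here, do not report on the location or processing of the proteins.

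The feedback genes are targets of NF-κB, and the bases upstream of their starts are shown for that reason. RefSeq windows of 250 bases upstream of a transcription start (GRCm38.p6) were found for 7 of the 10 genes, in 10 windows. They were searched on both strands for a strict form of the κB motif, the binding sequence of NF-κB. This form was GGGRNNYYCC, with R a purine, Y a pyrimidine and N any base. It was present in 6 of the 10 windows (60%), those of Nfkb2 (3 windows), Nfkbia, Nfkbie and Tnfaip3, against 7.25% of all 32851 mouse windows. Counted by gene it was present for 4 of 7 (57.1%), against 8.23% of 27025 genes. A match describes letters in the window, and binding was not measured. A window with 0 matches can still hold a κB site of another form. The first windows of Nfkb2 (chr19:46304487-46304736, plus strand), Nfkbia (chr12:55492648-55492897, minus strand), Nfkbie (chr17:45555450-45555699, plus strand) and Tnfaip3 (chr10:19015411-19015660, minus strand) follow, each 5′ to 3′ on the strand of its gene and ending at the base before the start, with κB matches in capitals. The window of Icam1 (chr9:21015690-21015939, plus strand), which had 0 matches to this strict form, is also given.
Nfkb2: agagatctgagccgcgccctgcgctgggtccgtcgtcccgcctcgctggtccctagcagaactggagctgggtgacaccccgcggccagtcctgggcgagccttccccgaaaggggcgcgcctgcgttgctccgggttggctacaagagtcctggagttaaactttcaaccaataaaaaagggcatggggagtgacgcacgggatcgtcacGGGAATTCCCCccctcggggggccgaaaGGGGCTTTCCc
Nfkbia: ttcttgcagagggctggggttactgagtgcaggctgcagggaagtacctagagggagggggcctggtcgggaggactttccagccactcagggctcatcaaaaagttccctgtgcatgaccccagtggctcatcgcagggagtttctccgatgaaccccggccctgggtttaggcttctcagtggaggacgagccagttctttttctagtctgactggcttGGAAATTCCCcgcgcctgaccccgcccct
Nfkbie: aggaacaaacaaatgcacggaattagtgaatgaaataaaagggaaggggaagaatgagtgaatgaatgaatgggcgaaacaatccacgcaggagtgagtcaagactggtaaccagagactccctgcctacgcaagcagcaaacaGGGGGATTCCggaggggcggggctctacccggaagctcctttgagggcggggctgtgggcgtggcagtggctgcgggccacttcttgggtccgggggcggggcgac
Tnfaip3: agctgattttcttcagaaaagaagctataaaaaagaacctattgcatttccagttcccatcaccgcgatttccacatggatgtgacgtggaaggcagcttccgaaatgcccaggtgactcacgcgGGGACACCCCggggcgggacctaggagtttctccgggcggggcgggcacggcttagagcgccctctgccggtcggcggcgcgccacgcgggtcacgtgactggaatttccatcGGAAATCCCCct
Icam1: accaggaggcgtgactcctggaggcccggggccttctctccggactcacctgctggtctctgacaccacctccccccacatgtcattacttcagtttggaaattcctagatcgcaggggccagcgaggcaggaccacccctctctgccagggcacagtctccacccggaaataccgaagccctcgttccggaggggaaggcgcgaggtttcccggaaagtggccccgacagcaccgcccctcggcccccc
In the Nfkb2 window the first run of capitals holds 2 overlapping matches, at 39 to 30 and 38 to 29 bases upstream, and a further match lies at 11 to 2 bases. The Nfkbia match lies at 29 to 20 bases upstream and the Nfkbie match at 106 to 97 bases. Tnfaip3 had 1 match at 125 to 116 bases and 1 at 12 to 3 bases. The windows of Birc3 and Rela also had 0 matches.

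The libraries held an estimated 26.2 to 36.9 M reads, and every one of the 10 genes had at least 174 estimated reads in each library. Values are given as scaled reads, which are the estimated reads of a gene put on one scale for all libraries, and which compare libraries within a gene but not genes with each other. YAP replicate 1 had low values of GC-rich transcripts. In the top decile of genes by GC content, its median stood at -1.02 (log2) from each gene's mean over the libraries, against 0.01 to 0.42 in the other libraries. Nfkb2 and Rela are in that decile, each with 59.4% GC. BrafYAP replicate 6 correlated less with the other libraries (r of 0.732 to 0.837 across genes) than BrafYAP replicates 1 and 2 did with each other (0.968). The sorted cells had epithelial markers in every library (6 of 6), as well as Pax8, a thyroid transcription factor. Of the 13 thyroid follicular markers, 7 had at least 3 reads in all libraries, and Tshr and Slc26a4 were among those below that in some.

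Compared per exonic length, as TPM recomputed here, Nfkbia and Icam1 had the highest levels of the 10 genes, with medians over the 6 libraries of 628 and 507 TPM. Nfkbie (87.0 TPM), Rela (85.8 TPM) and Nfkb2 (65.3 TPM) followed, then Tnfaip3 (35.9 TPM), Birc3 (29.1 TPM), Nfkbiz (25.7 TPM), Relb (18.0 TPM) and Nfkb1 (3.88 TPM). In this order the ranges over libraries overlapped between each pair of neighbors except Icam1, whose lowest value was 290.4 TPM, and Nfkbie, whose highest was 157 TPM. By the ratio of the highest to the lowest library, Rela was the steadiest of the 10, at 71.6 to 93.8 TPM, and Nfkb2 the most variable, at 6.59 to 79.7 TPM. The exonic length counts all annotated exons of a gene. It was 12061 bases for Nfkb1, whose longest transcript has 4149, and 4584 bases for Nfkb2, whose longest transcript has 3846. Levels compared between genes rest on this choice of length.

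**Figure D1:**
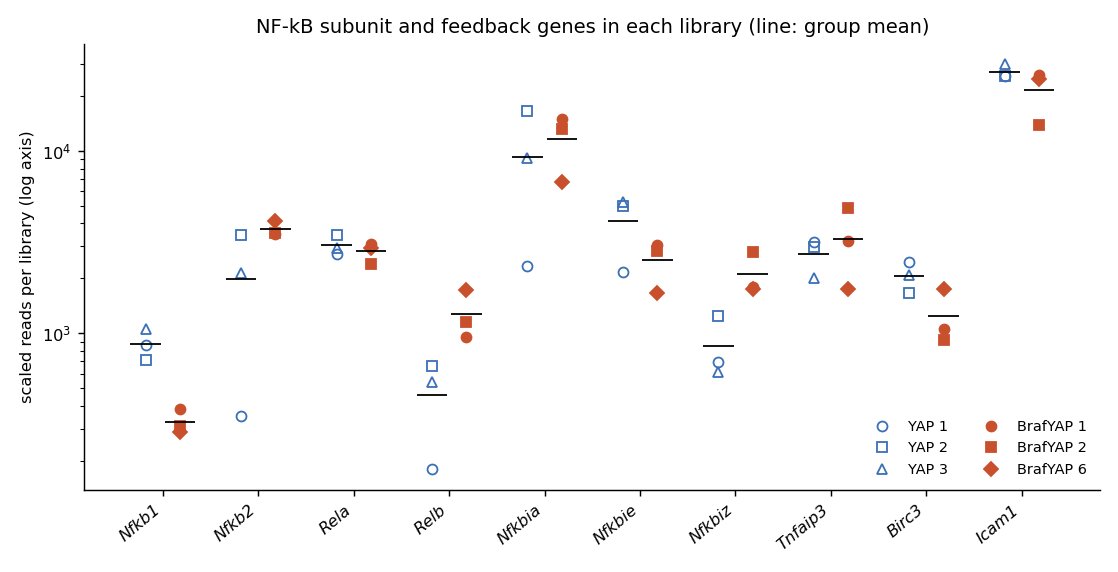
Scaled reads (log axis) of the 10 NF-κB genes in each library, with open blue symbols for the 3 YAP libraries, filled red symbols for the 3 BrafYAP libraries and a line at each group mean. The groups are apart for Nfkb1 (BrafYAP lower) and for Nfkb2, Relb and Nfkbiz (BrafYAP higher), and YAP replicate 1 is the lowest library for Nfkb2, Relb and Nfkbia.

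Within the subunits, Relb and Nfkb2 had higher values in every BrafYAP library than in any YAP library, Nfkb1 had lower values, and Rela had similar values in both groups. None of these differences passed the test after adjustment over all genes. Of 16832 genes tested with limma on log2(scaled reads + 1), 0 (0%) had an adjusted p-value under 0.05, and the lowest adjusted p-value of any gene was 0.0517. An unadjusted p-value under 0.05 was found for 3404 genes (20.2%), with 1629 (9.68% of all) higher and 1775 (10.5%) lower in BrafYAP. A test by voom on the estimated reads likewise called 0 genes, with 3419 at an unadjusted p-value under 0.05. The values of the 2 groups did not overlap for 4836 genes (28.7%). Among the 10 NF-κB genes, 0 passed the adjusted threshold, 3 had an unadjusted p-value under 0.05 (Relb and Nfkbiz higher, Nfkb1 lower), and 4 had groups that did not overlap. To the nearest gene, each of the last counts is 1 above what the share of all genes would give for 10 genes, and nothing particular to these genes was read from them. The median log2 fold change of the 10 genes, BrafYAP minus YAP, was 0.03, against -0.12 over all genes tested, with 5 genes above 0 and 5 below.

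Nfkb1 (chr3:135584655-135691547, minus strand, mm10) encodes the precursor of the DNA-binding partner of RelA. It had 864, 714 and 1049.6 scaled reads in YAP replicates 1, 2 and 3, and 384, 311 and 287 in BrafYAP replicates 1, 2 and 6. All BrafYAP libraries were below all YAP libraries, and the spread within each group was small (876 ± 168 in YAP and 327 ± 50.9 in BrafYAP, mean ± SD, n = 3 each). BrafYAP differed from YAP by a log2 fold change of -1.41 (SE 0.30, 95% interval -2.11 to -0.71), a level 2.66-fold higher in YAP, with an unadjusted p-value of 0.00193 and a limma adjusted p-value of 0.0927. This was the lowest adjusted p-value of the 10 genes. The fold change ranged from -1.55 to -1.27 when each library was left out in turn, and was -1.20 after centring on GC content. Another annotated gene, Gm43430, overlaps Nfkb1 on the same strand, and its reads cannot be told apart from those of Nfkb1. In bulk RNA of this kind, fewer cells that express a gene and less RNA per cell cannot be told apart. Nfkb1 is also expressed in leukocytes, and the sum of 20 leukocyte markers was 14055 to 46913 TPM in YAP and 3699 to 13892 TPM in BrafYAP. Most of each sum was Lyz2, a macrophage and granulocyte gene, and without it the sums were 3026 to 8813 TPM in YAP and 692 to 1881 TPM in BrafYAP. The pan-leukocyte gene Ptprc was at 11.9, 11.0 and 8.28 TPM in YAP and 2.98, 2.04 and 4.22 TPM in BrafYAP. The part of leukocytes in the Nfkb1 difference was not tested.

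Nfkb2 (chr19:46304320-46312385, plus strand) encodes the precursor of the noncanonical DNA-binding subunit. It had 352, 3441 and 2129.6 scaled reads in the YAP replicates and 3499.98, 3539 and 4123 in the BrafYAP replicates. The BrafYAP libraries were close together and above all YAP libraries, but YAP replicate 2 was close to BrafYAP replicate 1. The log2 fold change of 1.43 (SE 0.78, 95% interval -0.40 to 3.27) had an adjusted p-value of 0.343. It was 0.45 without YAP replicate 1 and 2.10 without YAP replicate 2 (adjusted p-value 0.165). After centring on GC content it was 0.82, the groups overlapped, and YAP replicate 1 had 768 reads against 2141 and 2822 in the other YAP libraries. With both changes together it was 0.26. Nfkb2 overlaps Psd and a noncoding gene on the opposite strand, and since the strand used in counting was not stated, reads of these genes cannot be told apart.

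Rela (chr19:5637483-5648130, plus strand) encodes the main activating subunit of the canonical route. Its values were 2704, 3463 and 2932 scaled reads in YAP and 3072, 2409 and 2944 in BrafYAP. The groups overlapped, with the highest and the lowest library within 1.44-fold of each other. In the fit the log2 fold change was -0.11 (SE 0.26, 95% interval -0.72 to 0.50, adjusted p-value 0.831), and it was 0.015 with median-ratio scaling, which moved the median over all genes from -0.12 to 0.01. After centring on GC content, which raised YAP replicate 1 to 5851 reads, it was -0.71 and the groups did not overlap, with an adjusted p-value of 0.301. Without YAP replicate 1 the centred value was -0.37.

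Relb (chr7:19606217-19629438, minus strand) encodes the transactivating partner of the noncanonical dimer. YAP replicates had 179, 657 and 539 scaled reads and BrafYAP replicates 955, 1145 and 1735. Every BrafYAP library was above every YAP library, and YAP replicate 1 was again the lowest. Relb had a log2 fold change of 1.63 (SE 0.53, 95% interval 0.38 to 2.89), or 3.10-fold, with an unadjusted p-value of 0.0176 and an adjusted p-value of 0.164. It was 1.06 without YAP replicate 1, 1.52 after centring on GC content and 1.15 with both, and the groups did not overlap under any of these.

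Among the inhibitors, Nfkbiz was higher in every BrafYAP library, while Nfkbia and Nfkbie, which encode the cytoplasmic inhibitors IκBα and IκBε, overlapped between the groups. Nfkbiz (chr16:55811375-55838899, minus strand) encodes a nuclear member of the IκB family that is induced by interleukin and microbial signals and acts with NF-κB on a set of secondary target genes. It had 696, 1241 and 616 scaled reads in YAP and 1799, 2774 and 1749 in BrafYAP. The lowest BrafYAP library stood above the highest YAP library. Nfkbiz had a log2 fold change of 1.34 (SE 0.37, 95% interval 0.48 to 2.21), or 2.54-fold, with an unadjusted p-value of 0.00788 and an adjusted p-value of 0.127. It stayed between 1.13 and 1.65 with any 1 library left out, and was 1.60 after centring on GC content.

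Nfkbia (chr12:55489410-55492647, minus strand), the classic rapid feedback inhibitor, had 2342, 16495 and 9099 scaled reads in the YAP replicates. The BrafYAP replicates had 15003, 13130.1 and 6752. YAP libraries held both the lowest and the highest of the 6 values, 7.04-fold apart. The log2 fold change of 0.64 (SE 0.71, 95% interval -1.03 to 2.31, adjusted p-value 0.635) became -0.16 without YAP replicate 1 and 1.25 without YAP replicate 2. Nfkbia has 52.9% GC, and YAP replicate 1 had 2209 reads after centring on GC content.

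Nfkbie (chr17:45555703-45563169, plus strand) had 2171, 4993 and 5267 scaled reads in YAP and 3057, 2819.95 and 1659.8 in BrafYAP. YAP replicate 1 lay among the BrafYAP values and the other YAP libraries above them. Over all libraries the log2 fold change was -0.67 (SE 0.44, 95% interval -1.69 to 0.36, adjusted p-value 0.422). Without YAP replicate 1 it was -1.08, the groups did not overlap, and the adjusted p-value was 0.292. It was -0.44 without YAP replicate 3, -0.39 without BrafYAP replicate 6 and -0.17 with a replicate block.

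For the feedback and target genes the groups overlapped when all 6 libraries were used. Groups with fewer libraries overlap less easily, and the share of all genes without overlap when 1 library was left out is not given. Nothing was therefore read from a lack of overlap with 1 library left out, here or for Nfkbie. Tnfaip3 (chr10:19000910-19015657, minus strand) encodes a ubiquitin-editing enzyme that terminates NF-κB signaling. It had 3149, 2986 and 2004 scaled reads in YAP and 3213, 4885 and 1744 in BrafYAP, so that BrafYAP libraries were both the highest and the lowest. Its log2 fold change was 0.18 (SE 0.43, 95% interval -0.82 to 1.18, adjusted p-value 0.833), and it was -0.02 without YAP replicate 3 and -0.17 without BrafYAP replicate 2. Without BrafYAP replicate 6 it was 0.57 (adjusted p-value 0.377) and the groups did not overlap.

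Birc3 (chr9:7848699-7873186, minus strand) encodes an inhibitor-of-apoptosis ubiquitin ligase that promotes canonical signaling and restrains the NF-κB-inducing kinase. Its values were 2463, 1656 and 2077 scaled reads in YAP and 1059.7, 917 and 1738 in BrafYAP. BrafYAP replicate 6 was above YAP replicate 2, and the other BrafYAP libraries were below all YAP libraries. Birc3 had a log2 fold change of -0.77 (SE 0.34, 95% interval -1.57 to 0.02), with an unadjusted p-value of 0.0551 and an adjusted p-value of 0.256. Left-out libraries gave -1.05 to -0.59, with no overlap without BrafYAP replicate 6 (-1.05, unadjusted p-value 0.0110, adjusted 0.135) or without YAP replicate 2 (-0.92, adjusted 0.214).

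Icam1 (chr9:21015985-21028817, plus strand) encodes an adhesion molecule for leukocytes that inflammatory signals induce. It had 25778, 25807 and 29875.5 scaled reads in YAP, a spread of 8.68% (coefficient of variation), and 26169.6, 13876 and 24870.5 in BrafYAP. BrafYAP replicate 1 lay within the YAP range and replicate 2 was the lowest library. The log2 fold change of -0.38 (SE 0.33, 95% interval -1.16 to 0.40, adjusted p-value 0.540) was -0.09 without BrafYAP replicate 2. Without BrafYAP replicate 1 it was -0.54 (adjusted p-value 0.491) and the groups did not overlap. An antisense gene overlaps Icam1, and its reads cannot be told apart from those of Icam1.

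**Figure D2:**
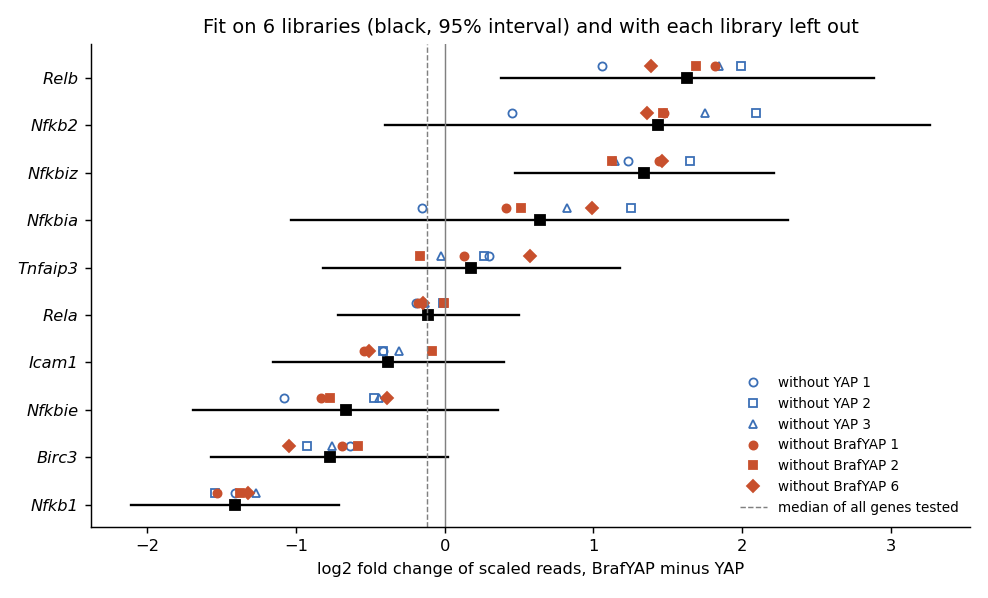
Log2 fold change of scaled reads, BrafYAP minus YAP, for each of the 10 genes, with black squares and 95% intervals for the fit on 6 libraries and colored symbols for the fit without 1 library. The intervals of Relb and Nfkbiz lie above 0 and that of Nfkb1 below 0, whereas the points without YAP replicate 1 move Nfkb2 to 0.45 and Nfkbia to -0.16; the dashed line is the median of all genes tested, -0.12.

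Pairs of related genes were also compared within each library, where the scaling between libraries cancels. The pairs were chosen after the values of the genes were seen, and the ratios are a description with no test. The size of a ratio rests on the exonic lengths used, whereas the log2 difference between the groups does not. The ratio of Nfkb2 to Nfkb1, the precursors of the noncanonical and canonical routes, was 1.07, 12.7 and 5.34 in the YAP replicates and 23.95, 29.95 and 37.8 in the BrafYAP replicates (TPM per exonic length). The BrafYAP ratios were all higher, by 2.85 on the log2 scale in the mean. This separation was fixed in advance, since Nfkb2 was higher and Nfkb1 lower in every BrafYAP library. The ratio of Relb to Rela was 0.0523, 0.150 and 0.145 in YAP and 0.246, 0.376 and 0.466 in BrafYAP, a log2 difference of 1.75, again without overlap. Nfkbia exceeded Nfkbie 2.04-fold, 6.25-fold and 3.27-fold in YAP and 9.28-fold, 8.81-fold and 7.69-fold in BrafYAP, a log2 difference of 1.31. From GC-centred reads the log2 differences were 2.03, 2.24 and 1.47, and the groups did not overlap for any of the 3 ratios. Centring raised Rela in YAP replicate 1 from 2704 to 5851 reads, and the Relb to Rela ratio of that library fell to 0.033. The share of other gene pairs without overlap was not computed, and nothing was read from the lack of overlap of these ratios. YAP replicate 1 had the lowest value of each ratio, and without it the log2 differences of the TPM ratios were 1.87, 1.25 and 0.92. Without YAP replicate 2 they were 3.65, 2.01 and 1.73.

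**Figure D3:**
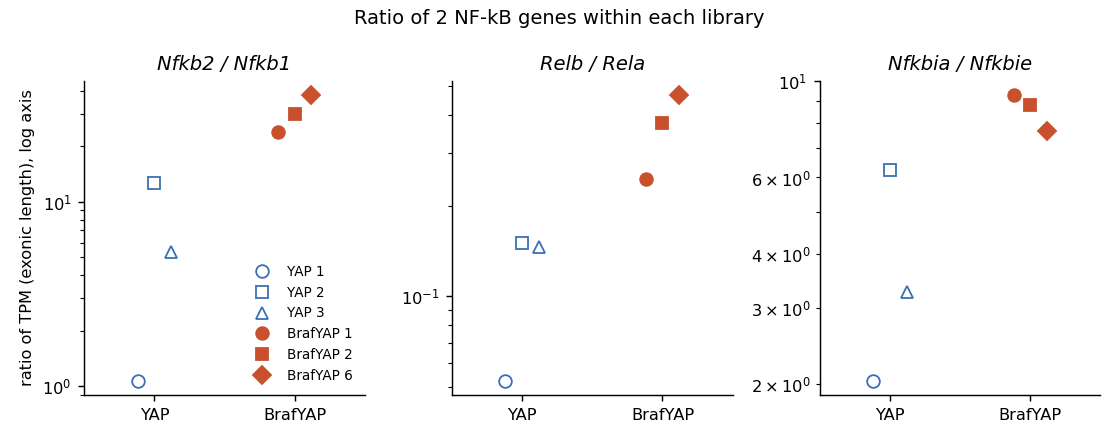
Ratio of 2 NF-κB genes within each library (TPM per exonic length, log axes), for Nfkb2 over Nfkb1, Relb over Rela and Nfkbia over Nfkbie, with 1 symbol per library. Each BrafYAP ratio is above each YAP ratio, and YAP replicate 1 is the lowest of the 6 in all panels. The pairs were chosen after the values were seen.

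The rest of the pathway was described from 4 lists of 78 genes, of which all 78 were tested. None passed the adjusted threshold, and the lowest adjusted p-value was 0.0589. An unadjusted p-value under 0.05 was found for 8 genes higher and 17 lower in BrafYAP, 25 of 78 beside 20.2% of all genes (9.68% higher and 10.5% lower), and the median log2 fold change was -0.25, against -0.12 over all genes tested. For 25 genes the groups did not overlap, 5 higher and 20 lower, beside 28.7% of all genes (11.7% higher and 17.1% lower). The counts of the single lists that follow stand beside the same shares, and nothing particular to a list was read from them.

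Among 20 receptors and ligands, 1 gene was higher and 5 were lower at an unadjusted p-value under 0.05, and the median log2 fold change was -0.30. The gene with the higher level was Ltbr, the lymphotoxin β receptor and an entry to the noncanonical route. It had 725, 3422 and 1487 scaled reads in YAP and 5488, 5099 and 3134 in BrafYAP, with 1 BrafYAP library inside the YAP range, a log2 fold change of 1.52 (SE 0.57) and an adjusted p-value of 0.202. Its ligand subunit Ltb was low in all libraries, at 12.3 to 119.9 scaled reads in YAP and 79.9 to 213 in BrafYAP. The cytokine genes Tnf and Il1b had log2 fold changes of -0.04 and -0.33, and the receptor genes Tnfrsf1a, Tnfrsf1b, Il1r1 and Tlr4 had 0.64, 0.10, -0.27 and 0.18, all with overlapping groups. The 5 lower genes, named after their values were seen, were Cd40, Lta, Tlr2, Tnfsf10 and Tnfsf13b.

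Among 21 adaptors and kinases, 4 genes were higher and 5 lower at an unadjusted p-value under 0.05, and the median log2 fold change was -0.15. The catalytic subunits of the IκB kinase complex had differences of opposite sign. Chuk (IKKα), the kinase of the noncanonical route, had 196, 372 and 299.7 scaled reads in YAP and 547, 598 and 807 in BrafYAP, a log2 fold change of 1.20 (SE 0.35, adjusted p-value 0.141). Ikbkb (IKKβ), the main canonical kinase, had 5995, 5779 and 6006 in YAP and 3934, 3197 and 2361 in BrafYAP, a log2 fold change of -0.94 (SE 0.28, adjusted p-value 0.145). The groups did not overlap for either gene. The regulatory subunit Ikbkg had a log2 fold change of -0.30 with overlapping groups.

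Map3k14, which encodes the NF-κB-inducing kinase, had 934, 1191 and 1874 scaled reads in YAP and 669, 666 and 229 in BrafYAP. All BrafYAP values were lower, with a log2 fold change of -1.45 (SE 0.50, adjusted p-value 0.181). Birc2, the paralog of Birc3, had 1616, 1099.9 and 1556 in YAP and 635, 584 and 846 in BrafYAP, also without overlap (-1.05, SE 0.30, adjusted p-value 0.136). The adaptor genes that join these ubiquitin ligases to the kinase, Traf2 and Traf3, had log2 fold changes of -0.49 and 0.0090, and Traf1, an NF-κB target, had -0.25. Of these, the groups did not overlap for Traf2 alone. The other genes of this list with an unadjusted p-value under 0.05, named after their values were seen, were Tab3, Traf6 and Ripk1 (higher) and Ikbke and Irak4 (lower).

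Among 13 other subunits and inhibitors, 0 genes were higher and 2 lower at an unadjusted p-value under 0.05, and the median log2 fold change was 0.35. Tnip1, a ubiquitin-binding partner of the Tnfaip3 product, had 2878, 2576 and 2664 scaled reads in YAP and 1517, 1589.7 and 734 in BrafYAP. The groups were apart, with a log2 fold change of -1.16 (SE 0.36, adjusted p-value 0.151). The other lower gene was Zc3h12a, named after its values were seen. Rel, the subunit gene prominent in lymphoid and myeloid cells, had a log2 fold change of -0.29, with its highest value, 922 scaled reads, in BrafYAP replicate 6. Nfkbib, Bcl3 and Cyld had log2 fold changes of 0.75, 0.35 and -0.40, all with overlapping groups.

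Among 24 other target genes, 3 were higher and 5 lower at an unadjusted p-value under 0.05, and the median log2 fold change was -0.28. Vcam1, an adhesion molecule like Icam1, had 10671, 4433 and 7156 scaled reads in YAP and 1810.5, 3519 and 854 in BrafYAP, a log2 fold change of -1.99 (SE 0.57, adjusted p-value 0.133). Tnfaip2 had 1098, 974 and 901 in YAP and 415, 372 and 249.6 in BrafYAP, a log2 fold change of -1.54 (SE 0.31, adjusted p-value 0.0889). Both genes were lower in all BrafYAP libraries. The chemokine gene Ccl2 had 3897, 3920.1 and 3978 in YAP and 2699, 1779 and 267 in BrafYAP, without overlap, with an unadjusted p-value of 0.0517. The neutrophil chemokine genes Cxcl1 and Cxcl2 had log2 fold changes of -0.18 and -0.48 with overlapping groups. Cxcl5, of the same kind and named after its values were seen, was higher without overlap (log2 fold change 2.44, limma adjusted p-value 0.191). It was low, at 4.11 to 12.4 scaled reads in YAP and 23.1 to 168 in BrafYAP. Il6 was at 28.8 to 95.3 scaled reads in the YAP libraries and BrafYAP replicate 1, at 21.2 in BrafYAP replicate 2 and at 788 in BrafYAP replicate 6. The protective genes Sod2, Cflar and Gadd45b had log2 fold changes of 0.66, -0.28 and -0.29, also with overlap. Further genes of this list with an unadjusted p-value under 0.05, named after their values were seen, were Ptgs2 and Mmp9 (higher) and Ccl5, Ccl20 and Irf1 (lower).

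**Figure D4:**
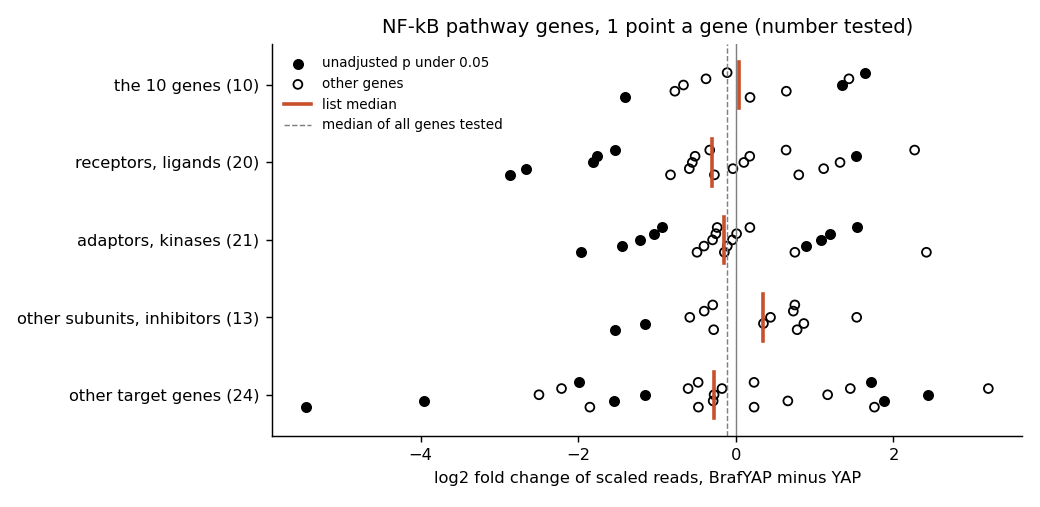
Log2 fold change of scaled reads, BrafYAP minus YAP, with 1 point per gene for the 10 genes and the 4 other NF-κB lists, filled where the unadjusted p-value was under 0.05. List medians (red) run from -0.30 for receptors and ligands to 0.35 for other subunits and inhibitors, and the dashed line is the median of all genes tested, -0.12.

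Leukocyte markers and a list of stress and immediate-early genes also differed between the groups. Leukocytes express many NF-κB genes, and cell stress can activate the pathway. The leukocyte markers lower in BrafYAP (8 of 15 tested at an unadjusted p-value under 0.05, beside 10.5% of all genes, and 7 without overlap, beside 17.1%) included the pan-leukocyte gene Ptprc and the macrophage genes Csf1r, Cd68, C1qa and C1qb. Of the 20 leukocyte markers, 12 had at least 3 reads in every library and none was at 0 in all libraries. Ptprc and Lyz2 did not order the BrafYAP libraries alike, with replicate 6 highest for Ptprc and lowest for Lyz2. The summed level of 14 stress and immediate-early genes, many of which are induced by tissue dissociation, was 4925, 10699.9 and 4456 TPM in YAP and 13313, 19376 and 21841 TPM in BrafYAP, with 8 of 14 genes higher at an unadjusted p-value under 0.05, beside 9.68% of all genes. The stress sums of the groups did not overlap, and they were not centred on GC content. Tissue handling and genotype cannot be told apart for the genes of this list. BrafYAP replicate 6, with the highest stress sum, had the lowest BrafYAP values of Nfkbia and Nfkbiz and the highest of Nfkb2 and Relb. Its Nfkbiz value was close to that of BrafYAP replicate 1 (1749 and 1799 scaled reads). YAP replicate 2, with the highest stress sum of its group, had the highest YAP values of these 4 genes. YAP replicate 1, with a higher stress sum than replicate 3, had a higher Nfkbiz value and lower Nfkb2, Relb and Nfkbia values than replicate 3. That library also had low values of GC-rich transcripts. These orders are given for 4 of the 10 genes only, and nothing was read from them. Endothelial sums were 4.34 to 32.8 TPM in YAP and 2.56 to 38.9 TPM in BrafYAP, and fibroblast sums 136 to 265 and 144 to 284 TPM. The part of leukocyte and stress levels in the NF-κB differences was not tested.

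**Figure D5:**
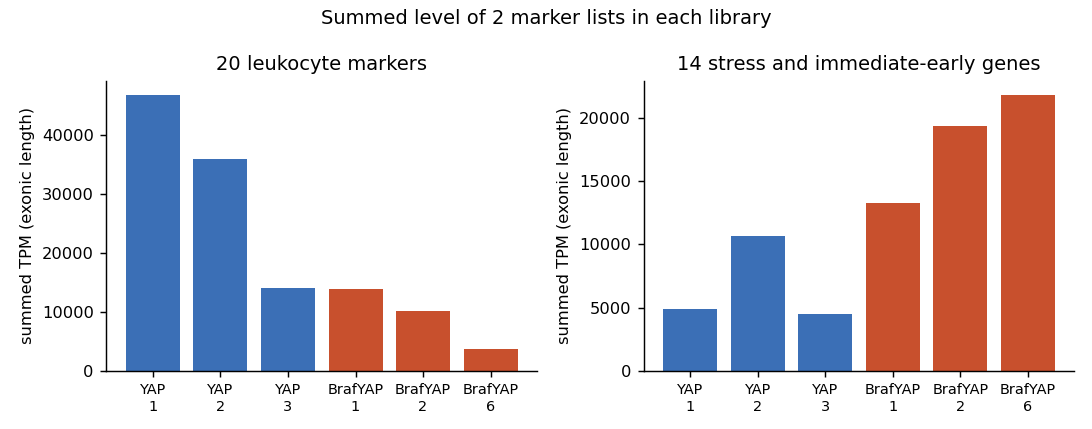
Summed level (TPM per exonic length) of 20 leukocyte markers, mostly Lyz2, and of 14 stress and immediate-early genes in each library, with blue bars for YAP and red bars for BrafYAP. The leukocyte sum runs from 46913 in YAP replicate 1 to 3699 in BrafYAP replicate 6, and each stress sum of BrafYAP exceeds the highest of YAP, 10699.9.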

How the data were processed

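RNA-seq was analysed in 3 YAP and 3 BrafYAP libraries, grouped by their titles. Reads were aligned by the authors with STAR 2.6.1d (mm10) and quantified in Partek by its E/M model against Ensembl 95, and the authors deposited TPM with 0.0001 added. The deposited TPM sum to 181218 per library. Multiplied by the genomic span of the gene (GENCODE M21), 71.6 to 75.9% of low values (under 200 reads) fell within 0.05 of a whole multiple of 1 step per library, against 8.31 to 25.3% with the exonic length, so the length used was taken to be the span. Estimated reads were computed as (value - 0.0001) × span / step, for 34640 genes at 1 locus. Scaled reads are the same on a common step. TPM are not counts, so limma 3.58.1 (R 4.3.3; lmFit, eBayes with a mean-variance trend) was used, two-sided, on log2(scaled reads + 1). Genes needed a mean of 10 or more scaled reads, with Benjamini-Hochberg adjustment over all genes and a threshold of 0.05. The scripts were tested on simulated data. The labels name no batch. Nothing states whether tumors of 1 group came from separate litters, and p-values measure only the spread between these libraries.

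The 10 genes, the pathway lists, written from general knowledge, and the marker lists were chosen with earlier results of these data known. Named genes are the 10 and 30 pathway genes picked by role, plus any past the adjusted threshold (there were 0). Others are marked as named after their values were seen. Alternatives were other pseudocounts, filters, lengths and scalings, voom, array weights, a replicate block and each library left out. Centring on GC content (medians of log2 values in 20 bins of genes, per library) was added after seeing the data. Replicate numbers 1 and 2 occur in both groups, but r of the deviations of same-numbered libraries was -0.03 and 0.05, and the labels tie no number to a shared mouse.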

Additional observations from a re-analysis of the deposited data

How the results depend on the processing

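The 10 genes and their directions were compared under 22 alternatives. Nfkb1 (20 alternatives in which it could be fitted, since its deposited values are below the minimum), Nfkb2, Relb, Nfkbie, Nfkbiz, Birc3 and Icam1 kept their direction in each of them. The direction reversed for Rela with median-ratio scaling (0.015), for Nfkbia without YAP replicate 1 (-0.16, in a range of -0.16 to 1.25 with 1 library left out) and for Tnfaip3 without YAP replicate 3 (-0.02) and without BrafYAP replicate 2 (-0.17, in a range of -0.17 to 0.57). The causes were not tested. The median log2 fold change of the 10 genes lay between -0.17 and 0.29, and between -0.17 and 0.21 with 1 library left out.

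The count of all genes called, 0 as reported, depended on the setting: it was 45 with a pseudocount of 10, 16 with no filter, 18 and 1 on the deposited values with pseudocounts of 1 and 0.1, 63 on TPM by exonic length, 55 with scaling by library total, 62 with quantile normalization, 20 without a trend, 4653 with array weights and 20 after GC centring. With 1 library left out it ranged from 0 to 142 (142 without BrafYAP replicate 6). Of the 10 genes, 5 passed with array weights (Birc3, Nfkb1, Nfkbie, Nfkbiz and Relb) and 0 under every other alternative, 0 to 0 with 1 library left out. Of the 78 pathway list genes, 1 passed on the deposited values with a pseudocount of 1, on TPM by exonic length, with scaling by library total and with quantile normalization, 27 passed with array weights, and 0 to 2 with 1 library left out.

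With a replicate block 0 genes and 0 of the 10 genes were called, and the numbers do not pair the libraries, so the block estimates a shared number only. With the block 4 of the 10 genes (Birc3, Nfkb1, Nfkbiz and Relb) had an unadjusted p-value under 0.05, and 2531 genes in all. Each of the 10 genes had at least 174 estimated reads per library. The error that came from the small RNA input and its amplification was not estimated.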

Other observations

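Pathway genes outside the 30 picked by role also had groups that did not overlap, and those given here were chosen after their values were seen. Cd40, the receptor by which T cells activate antigen-presenting cells and some epithelia, had 3525.5, 2480.5 and 2872 scaled reads in YAP and 551, 513 and 230.0 in BrafYAP. Its log2 fold change was -2.86 (SE 0.40) and its adjusted p-value 0.0589, the lowest of the 78 pathway list genes. Ikbke, an IKK-related kinase gene, had 2182, 2533 and 2605 in YAP and 832, 929.5 and 308 in BrafYAP (-1.97, adjusted p-value 0.103). Zc3h12a, whose product degrades cytokine mRNAs, had 1086, 808 and 1026 in YAP and 439, 334 and 249 in BrafYAP (-1.54, adjusted p-value 0.0927). In all 3 genes each BrafYAP library was below each YAP library, and BrafYAP replicate 6 was the lowest.

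Inflammatory target genes went both ways. The T-cell chemokine gene Ccl5 had 629, 248 and 619 scaled reads in YAP and 2.22, 3.14 and 86.1 in BrafYAP. Irf1, an interferon-responsive transcription factor gene, had 5053, 9379 and 5696 in YAP and 2808, 2698 and 3268 in BrafYAP (log2 fold change -1.15, adjusted p-value 0.126). Ptgs2, the inducible cyclooxygenase gene, had 1173, 1015 and 343 in YAP and 2153, 2107 and 4489 in BrafYAP (log2 fold change 1.88, adjusted p-value 0.138). The groups did not overlap for any of these 3 genes.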
